A study of Homo sapiens with 8 samples.

Results

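TR3 and TR2 are 2 sublines of Jurkat, a human T cell leukaemia line, that were each grown out under TRAIL until they survived it. TRAIL is a ligand of the tumour necrosis factor family that kills many tumour cells through death receptors. The comparison takes both TR3 samples and both TR2 samples, 4 of the 8 samples in the series, and sets them against each other on the log2 scale within each replicate number. Both sublines had been held under 1000 ng/mL TRAIL for 12 weeks, as had another subline, TR1, while the parental cells (WT) were TRAIL sensitive and untreated. The labels describe the 2 samples of a line as biological duplicates and name no further treatment before RNA was taken. Each subline is 1 clone and no clone grown without TRAIL was profiled, so a difference between TR3 and TR2 that came with resistance cannot be told apart from one that came with subcloning or time in culture.

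TRAIL binds the death receptors DR4 and DR5, which gather the adaptor FADD and caspase-8 into a death-inducing signalling complex. The protein c-FLIP can take the place of caspase-8 in that complex, and the decoy receptors bind TRAIL without passing the signal on. Jurkat cells carry the features of an immature T cell. Genes that immature T cells switch as they mature and leave the thymus, such as those for CD1 proteins, KLF2 and the S1P receptor S1PR1, are therefore of interest when sublines of this line are set side by side.

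RNA was read out on Illumina HumanRef-8 arrays with 22184 probes, of which 12408 to 13437 (55.9% to 60.6%) had a detection p under 0.05 on an array. All 10 T cell identity markers (among them CD3E, CD2, LCK and ZAP70) were detected on both arrays of every line, and their summed intensity was 15997 and 16434 in TR2 and 16952 and 16863 in TR3. None of 6 epithelial and none of 6 fibroblast markers was detected on both arrays of TR2 or of TR3, while 1 of 6 myeloid markers on the array (CD68) and 1 of 4 erythroid ones (HBA1) were. Of 16 B-lineage genes on the array, 8 were detected on both TR2 arrays and 9 on both TR3 arrays. The 2 arrays of TR2 correlated at 0.996 and those of TR3 at 0.997 over probes, and arrays of TR2 with arrays of TR3 at 0.994 to 0.996. In what follows, intensities are the authors' processed values in arbitrary units, with replicate 1 given before replicate 2, and a difference is TR3 minus TR2 in log2 units with its standard error (SE, n = 2 arrays per line). Calls were made in limma's moderated test with the replicate number as a block, where the adjusted p (Benjamini-Hochberg) was under 0.05.

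Few genes separated the clones, and most of the large differences were towards lower values in TR3. Of 10681 genes tested, 215 (2.01%) were higher in TR3 and 226 (2.12%) were lower, from 243 probes (1.85%) and 261 probes (1.99%) of 13130. Most calls were small, with a difference under 0.5 for 171 of the higher and 144 of the lower genes. Among called genes, 22 were at least 2-fold lower in TR3 and 2 at least 2-fold higher. Of the genes called lower, 19 were detected on both TR2 arrays and on no TR3 array, against 2 of those called higher the other way. Detection was read from the same arrays as the calls, so these counts are not separate support. The median over all genes tested was 0.01. Without the replicate block 30 probes were called higher and 87 lower, and without 1 array of either clone 39 to 99 were higher and 97 to 129 lower. Of the 84 called genes chosen for naming, 40 kept their call without the block. In RNA from bulk cells, fewer cells with a transcript and less of it per cell cannot be told apart.

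**Figure D1:**
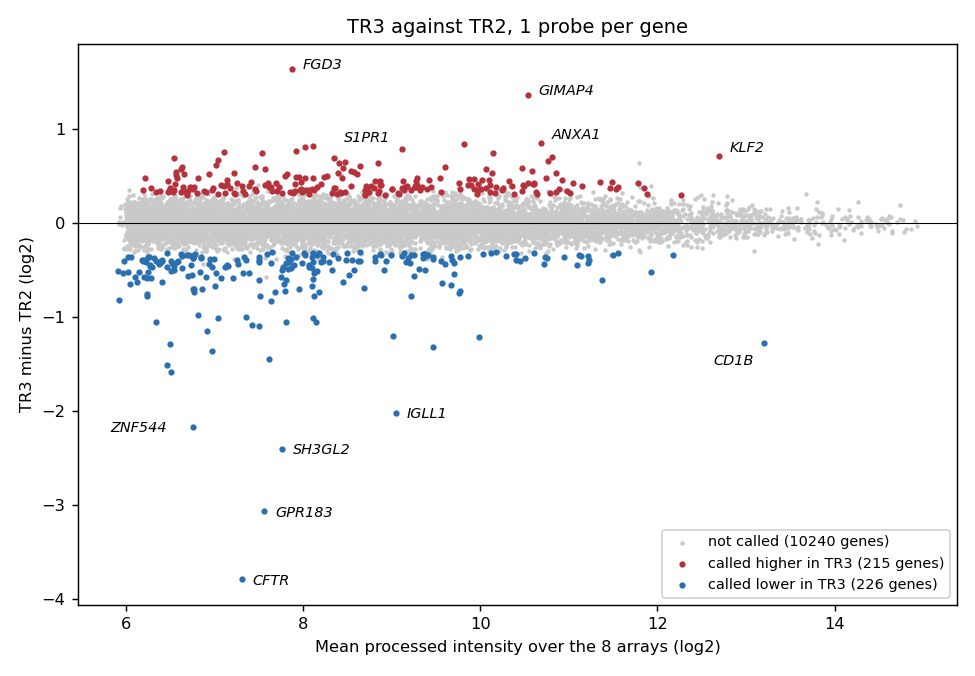
Difference between TR3 and TR2 (vertical axis, log2) against the mean processed intensity over the 8 arrays (horizontal axis, log2), with 1 point per gene. The 226 genes called lower reach -3.79 (CFTR), while the 215 called higher reach 1.64 (FGD3).

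The widest gap belonged to CFTR, the chloride channel of epithelia. Its intensity was 1152 and 769 on the TR2 arrays and 71.7 and 64.8 on the TR3 arrays, with 138 and 88.0 in WT. TR2 thus lay 13.8-fold above TR3, with no overlap, and the probe was detected on 1 of 2 TR3 arrays (-3.79 ± 0.12, adjusted p = 1.5e-13). SH3GL2, which encodes the endocytic protein endophilin A1, stood at 787 and 690 in TR2 and at 169 and 116 in TR3. The difference was -2.40 ± 0.10 (adjusted p = 6.5e-12), and WT (328 and 221) lay between the clones. A relative, SH3GL3, was also lower, with 473 and 547 in TR2 and 350 and 345 in TR3 (-0.55 ± 0.09, adjusted p = 0.00079). The SH3GL3 call ended without replicate 2 of TR2 or of TR3 (adjusted p up to 0.059). IGLL1, a surrogate light chain of the pre-B cell receptor, read 1726 and 1666 in TR2 against 458 and 385 in TR3. Both of its probes were lower in TR3, by -2.01 ± 0.12 (adjusted p = 1.1e-09) and -1.92 (3.1e-08). Of 10 tested B-lineage genes IGLL1 was the only one called. The list median was -0.05, with 3 values above 0 and 7 below.

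A further set of genes was on in TR2 and not detected above background on either TR3 array. For these, the drop is given as a lower bound, TR2's mean against the lowest intensity among probes detected on both TR3 arrays or the probe's own value, whichever was higher. ZNF544, a zinc finger protein gene, read 274 and 247 in TR2 and 59.9 and 56.1 in TR3, so it was at least 3.88-fold lower (adjusted p = 2.1e-11). PPP2R2B, a regulatory subunit of the phosphatase PP2A, gave 164 and 184 against 56.2 and 59.4, at least 2.59-fold lower (adjusted p = 7.8e-10). CABCOCO1, named for a coiled-coil protein of cilia, gave 178 and 144 against 56.1 and 56.2, a drop of at least 2.39-fold (adjusted p = 1.5e-09). COBLL1, a relative of an actin nucleator, gave 142 and 148 against 56.7 and 62.5, a drop of at least 2.16-fold (adjusted p = 4.2e-08). All 4 genes were detected on both WT arrays. PPP2R2B, CABCOCO1 and COBLL1 were detected on no TR1 array either, whereas ZNF544 was detected on both.

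Other genes were measured in both clones and stood higher in TR2. CD1B, which presents lipid antigens and marks cortical thymocytes, was among them, with 15289 and 16486 in TR2 and 6282 and 6842 in TR3 (-1.28 ± 0.08, adjusted p = 4e-09). CCDC26, a long noncoding RNA gene, gave 366 and 353 against 133 and 131 (-1.45 ± 0.08, adjusted p = 7.8e-10). EFHD1, a calcium-binding protein of mitochondria, gave 220 and 191 against 80.6 and 79.4 (-1.36 ± 0.09, adjusted p = 3.4e-09). In none of these 3 genes did an array of TR3 reach an array of TR2. WDR70, a WD-repeat protein gene, followed with 951 and 857 against 403 and 385 (-1.20 ± 0.08, adjusted p = 9.5e-09), and PRG4, which encodes lubricin, with 272 and 233 against 130 and 99.8 (-1.14 ± 0.11, adjusted p = 1.6e-06). TMSB15A, an actin-binding thymosin beta, gave 1422 and 1491 against 529 and 644 (-1.32 ± 0.12, adjusted p = 6.2e-07). Its near-identical neighbour TMSB15B moved with it (-1.05 ± 0.12), so signal from the pair is uncertain in its split. ID1, an inhibitor of helix-loop-helix transcription factors, gave 2103 and 1274 against 835 and 597 (-1.21 ± 0.12, adjusted p = 1.3e-06), but its other probe stood at -0.25 with no call (adjusted p = 0.25). The ID1 call also ended without the replicate block (adjusted p = 0.069).

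Fewer genes were much brighter in TR3. FGD3, an exchange factor for the GTPase CDC42, read 132 and 81.5 in TR2 and 347 and 300.0 in TR3, a 3.11-fold difference (1.64 ± 0.11, adjusted p = 1.2e-08). GIMAP4, a GTPase of lymphocytes, gave 871 and 635 in TR2 and 2015 and 1811 in TR3 (1.36 ± 0.10, adjusted p = 4.2e-08), while WT was brighter than either clone at 2752 and 2634. ANXA1, the phospholipid-binding protein annexin A1, gave 616 and 483 against 923 and 1056 (0.85 ± 0.13, adjusted p = 0.00054). Both clones lay below WT in ANXA1, TR2 by -2.36 ± 0.13 and TR3 by -1.50 ± 0.13. Smaller differences with no overlap followed in GTSF1, a factor of small-RNA silencing in germ cells (803 and 1025 against 1449 and 1829, 0.84 ± 0.12), and TRIM68, a ubiquitin ligase (161 and 169 against 299 and 263, 0.77 ± 0.09). The adjusted p was 0.00031 for GTSF1 and 1.3e-05 for TRIM68. The ANXA1 call ended without TR2 replicate 2 (adjusted p = 0.072), and the GTSF1 call without the block (0.051).

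Probes of 1 gene did not always move together. HOXC6, a homeobox transcription factor, gave 190 and 197 in TR2 and 338 and 345 in TR3 on its brighter probe (0.82 ± 0.08, adjusted p = 3.5e-06), whereas its other probe stood at -0.04 (adjusted p = 0.89). AHNAK, a giant scaffold protein, likewise stood at 0.75 ± 0.08 (168 and 142 against 284 and 237, adjusted p = 1.2e-05) on one probe and 0.01 (0.97) on the other. ABCG1, a sterol exporter, stood at 0.69 ± 0.12 (176 and 263 against 316 and 382, adjusted p = 0.0011) and at 0.17 (0.51). For HOXC6, AHNAK and ABCG1 the difference therefore applies to 1 probe and not to the gene. The ABCG1 call ended without TR2 replicate 2 or TR3 replicate 1 (adjusted p up to 0.098) and without the block (0.43).

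**Figure D2:**
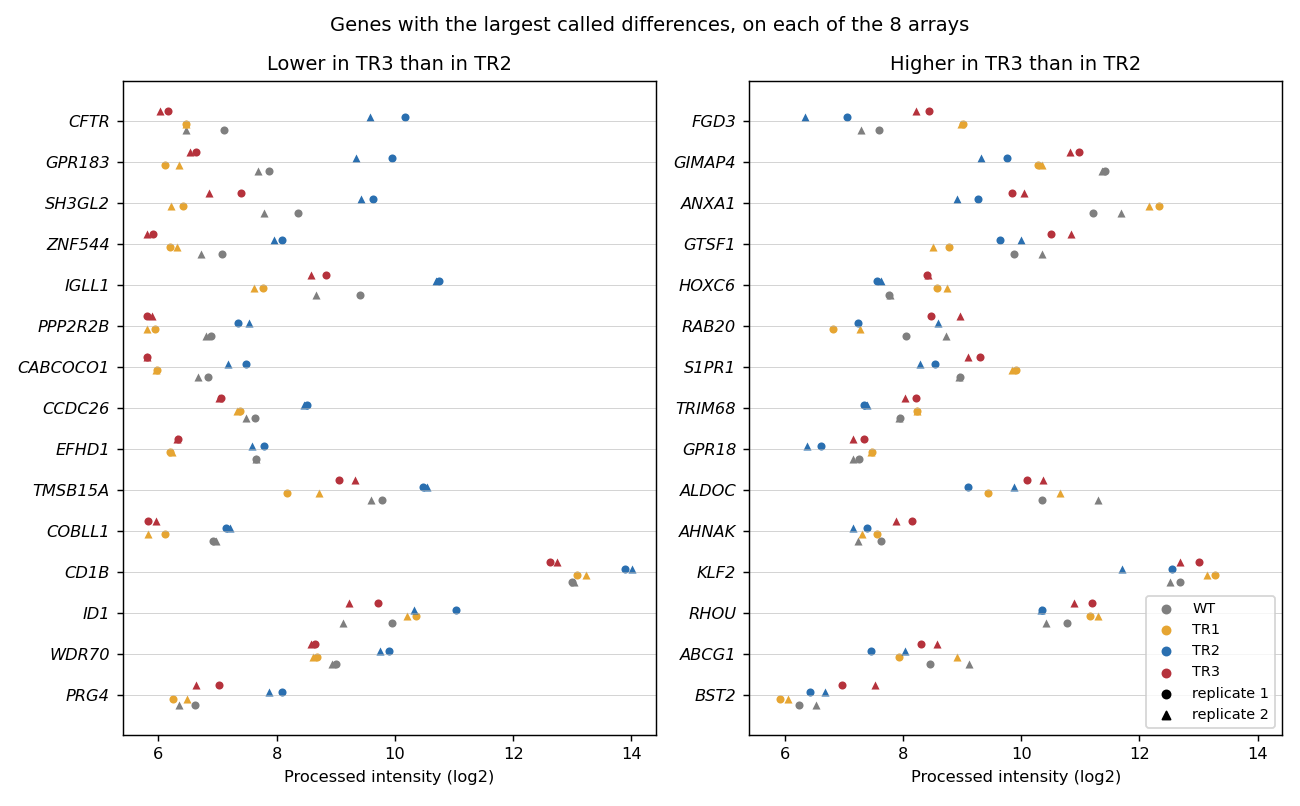
Processed intensity (log2, horizontal axis) of the 30 genes with the largest called differences on each of the 8 arrays, coloured by line, with circles for replicate 1 and triangles for replicate 2. Arrays of TR2 and TR3 do not overlap in 29 of the 30 genes, the exception being RAB20. The genes were picked by the difference between these same arrays, so the lack of overlap is not separate support.

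Receptors that position lymphocytes in tissue split between the clones. S1PR1, the receptor that lets lymphocytes leave lymphoid organs, stood at 372 and 314 in TR2 and at 634 and 548 in TR3 (0.79 ± 0.09, adjusted p = 9.9e-06). KLF2, a transcription factor that drives S1PR1 in T cells, stood at 6020 and 3349 in TR2 and at 8273 and 6588 in TR3 (0.72 ± 0.12, adjusted p = 0.0015). The KLF2 difference fell to 0.40 without TR2 replicate 2, and its call ended without the block (adjusted p = 0.2). GPR18, a receptor of lipid mediators, stood at 97.7 and 83.5 in TR2 and at 163 and 143 in TR3 (0.76 ± 0.09, adjusted p = 1.3e-05). GPR183, the receptor that draws lymphocytes towards oxysterols, went the other way, with 994 and 650 in TR2 and 99.7 and 92.9 in TR3. That 8.35-fold drop (-3.06 ± 0.13, adjusted p = 6.5e-12) set TR3 below WT (233 and 204) and TR2 above it. CCR7, a homing receptor for lymph nodes, stood at 84.8 and 74.7 in TR2 and at 114 and 114 in TR3 (0.52 ± 0.10, adjusted p = 0.004), but the call ended without TR2 replicate 2 or TR3 replicate 1 (adjusted p up to 0.21) and without the block (0.059). In all, 4 of 11 tested genes of the list were higher and 1 was lower, beside 2.01% and 2.12% of all genes tested. The list median was 0.01, and the list was chosen with earlier results of these data known.

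GPR18 and GPR183 follow each other among the tested genes of chromosome 13, read from the same strand, yet they moved in opposite directions. The 250 bases before the start of each are shown with those of S1PR1 and of CFTR, the gene with the largest difference, as RefSeq gives them on GRCh38.p14. The windows are chr13:99258380-99258629 on the minus strand (GPR18), chr13:99307400-99307649 on the minus strand (GPR183), chr1:101236769-101237018 on the plus strand (S1PR1) and chr7:117479775-117480024 on the plus strand (CFTR). Capitals mark CACCC or its complement GGGTG, the core of the CACCC boxes that KLF factors bind.
GPR18: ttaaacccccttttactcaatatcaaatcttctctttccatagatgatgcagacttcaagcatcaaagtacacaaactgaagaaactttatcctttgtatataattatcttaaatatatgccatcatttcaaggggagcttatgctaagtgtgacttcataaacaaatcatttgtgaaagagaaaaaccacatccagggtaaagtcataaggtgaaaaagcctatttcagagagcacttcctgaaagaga
GPR183: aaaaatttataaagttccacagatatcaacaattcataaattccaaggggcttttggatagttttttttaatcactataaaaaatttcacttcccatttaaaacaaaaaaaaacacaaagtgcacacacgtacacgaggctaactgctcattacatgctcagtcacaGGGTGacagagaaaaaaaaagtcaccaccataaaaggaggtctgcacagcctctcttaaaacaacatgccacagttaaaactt
S1PR1: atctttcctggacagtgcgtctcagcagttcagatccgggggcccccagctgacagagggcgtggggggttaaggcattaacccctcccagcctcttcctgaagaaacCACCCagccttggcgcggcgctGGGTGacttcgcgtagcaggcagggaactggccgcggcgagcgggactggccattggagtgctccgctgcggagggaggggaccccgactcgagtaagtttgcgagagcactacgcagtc
CFTR: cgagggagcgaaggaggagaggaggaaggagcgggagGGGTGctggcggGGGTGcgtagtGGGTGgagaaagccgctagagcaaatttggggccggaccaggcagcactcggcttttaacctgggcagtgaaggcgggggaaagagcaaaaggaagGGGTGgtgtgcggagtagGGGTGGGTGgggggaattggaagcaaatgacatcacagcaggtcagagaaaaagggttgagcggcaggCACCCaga
The motif, counted on both strands with overlapping matches allowed, occurred 0 times before GPR18, 1 time before GPR183, 2 times before S1PR1 and 7 times before CFTR. It is common, found in 54.7% of the 35116 windows of this kind. Of the 25 genes named for their size of difference that have a window, 16 had it in at least 1 window. That share is counted per gene and is not comparable with the share of windows. A match is a run of letters and was not tested as a site.

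In the TRAIL pathway itself, 1 gene was called. CFLAR, which encodes c-FLIP, read 80.5 and 75.1 in TR2 and 101 and 101 in TR3. The difference was 0.38 ± 0.09 (adjusted p = 0.013), and TR3 lay beside WT (109 and 101). TR1 was the brightest line, at 163 and 172. The CFLAR call ended without any 1 of the 4 arrays of the clones (adjusted p up to 0.21) and without the block (0.068). None of the other 9 tested genes of the complex was called, and the list median was 0.03. FADD, the adaptor, read 946 and 841 in TR2 and 877 and 883 in TR3 (-0.02 ± 0.09). CASP8, the initiator caspase, read 163 and 149 against 164 and 138 (-0.05 ± 0.10). The arrays of the clones overlapped in both genes. The remaining members were CASP10 (0.05), TRADD (0.01), PEA15 (-0.04), DAXX (-0.05), CASP8AP2 (0.14), CUL3 (0.15) and CYLD (0.23), with an adjusted p from 0.22 to 0.99.

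Ligand and receptors showed no called difference. TNFRSF10B, the death receptor DR5, gave 403 and 482 in TR2 and 440 and 518 in TR3 (0.12 ± 0.09, adjusted p = 0.6). TNFSF10, TRAIL itself, gave 96.0 and 93.9 against 79.1 and 77.4 (-0.28 ± 0.10, adjusted p = 0.14). TNFSF10 was called in 4 of 17 alternative settings and not in the other 13. TNFRSF10C, a decoy receptor, was detected on both TR3 arrays (70.1 and 70.3) and on no TR2 array (63.5 and 65.1), at least 1.04-fold higher with no call (adjusted p = 0.58). The death receptor DR4 (TNFRSF10A) and the decoy receptor genes TNFRSF10D and TNFRSF11B were not detected on any of the 8 arrays.

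Downstream of the receptors the clones were close. DFFA, the inhibitor subunit of the apoptotic DNA fragmentation factor, was the called gene of 10 in the list of the apoptosome and effector caspases, with 480 and 421 in TR2 and 367 and 359 in TR3 (-0.31 ± 0.08, adjusted p = 0.044). Its other probe stood at -0.01, and the call ended without any 1 of the 4 clone arrays (adjusted p up to 0.54). CYCS, which encodes cytochrome c, stood at 0.23 ± 0.08 (adjusted p = 0.16) and CASP9, the caspase of the apoptosome, at -0.10 ± 0.08 (0.63). No member was called among 4 anti-apoptotic and 13 pro-apoptotic BCL2 family genes or 7 inhibitors of apoptosis and their antagonists, with values from -0.26 to 0.27. TNIP1, which restrains NF-kB signalling, was lower in TR3 (443 and 485 against 352 and 349, -0.40 ± 0.09, adjusted p = 0.0096), 1 of 18 NF-kB genes. The TNIP1 call ended without either TR2 array or TR3 replicate 2 (adjusted p up to 0.27).

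Lists of T cell genes, chosen with earlier results of these data known, held called members on both sides. Of 5 CD1 genes, CD1B and CD1E were lower in TR3, while CD1D, the member that presents lipids to NKT cells, was higher. Over all genes tested, 2.12% were lower and 2.01% higher. CD1A (-0.155) and CD1C (0.287) were not called. CD1E gave 134 and 140 in TR2 and 93.9 and 91.0 in TR3 (-0.56 ± 0.08, adjusted p = 0.00037), and CD1D gave 1319 and 1216 against 1793 and 1597 (0.42 ± 0.09, adjusted p = 0.014). Among GIMAP genes, a cluster of lymphocyte GTPases, 3 of 6 were higher, beside 2.01% of all genes tested, and the list median was 0.38. Besides GIMAP4, these were GIMAP7 (263 and 180 against 330 and 304, 0.54 ± 0.12) and GIMAP1 (132 and 111 against 151 and 167, 0.39 ± 0.10). GIMAP5 stood at 0.36 ± 0.12 with an adjusted p of 0.1. The calls of CD1D, GIMAP1 and GIMAP7 ended without TR2 replicate 2 and without at least 1 other clone array (adjusted p up to 0.56 in GIMAP1). All but replicate 2 of TR3 did so for CD1D, all but replicate 1 of TR3 for GIMAP1 and all but replicate 1 of TR2 for GIMAP7. Without the block the adjusted p was 0.095 for CD1D, 0.16 for GIMAP1 and 0.19 for GIMAP7, so of the GIMAP calls only that of GIMAP4 held.

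Of 26 tested genes of the T cell receptor and its signalling, SKAP1 and CD6 were higher in TR3 and PTPRC lower. Over all genes tested, 2.01% were higher and 2.12% lower. The list median was 0.07. SKAP1, which links T cell receptor signalling to integrins, was not detected above background in TR2 (62.4 and 55.4) and read 95.2 and 77.0 in TR3, at least 1.27-fold higher (adjusted p = 0.028). CD6, a costimulatory receptor, gave 498 and 560 against 697 and 776 (0.48 ± 0.10, adjusted p = 0.01). PTPRC, the phosphatase CD45, gave 296 and 203 against 178 and 174 (-0.48 ± 0.10, adjusted p = 0.0096), with its other probe at -0.07. Of 25 transcription factors of thymocytes and T cell leukaemia, RUNX1 (1503 and 1295 against 1935 and 1968, 0.48 ± 0.12) and ZBTB16 (304 and 275 against 343 and 395, 0.35 ± 0.09) were higher. The other RUNX1 probe stood at 0.06 (adjusted p = 0.85), and the other ZBTB16 probe at 0.41 (0.021). Each of these 5 calls ended when TR3 replicate 1 was left out. It also ended without TR2 replicate 1 in SKAP1, CD6 and PTPRC, without TR2 replicate 2 in SKAP1, CD6, RUNX1 and ZBTB16, and without TR3 replicate 2 in RUNX1 and ZBTB16 (adjusted p up to 0.57).

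Genes of cytotoxic granules, adhesion and the interferon response gave scattered calls, beside 2.01% higher and 2.12% lower over all genes tested. GZMH, a granzyme, was lower in TR3 (106 and 97.6 against 68.7 and 66.8, -0.59 ± 0.09, adjusted p = 0.00054) and NKG7, a granule membrane protein, higher (186 and 134 against 240 and 215, 0.53 ± 0.09, 0.0013), 2 of 8 tested. BST2, the antiviral protein tetherin, gave 86.0 and 103 in TR2 and 125 and 185 in TR3 (0.69 ± 0.10, adjusted p = 0.00018). IFITM2 stood at 0.33 ± 0.09 and ISG20 at -0.39 ± 0.09, so 2 of 19 interferon-stimulated genes were higher and 1 was lower. Integrin genes ITGA5 (0.36 ± 0.09) and ITGB7 (0.34 ± 0.09) were higher, 2 of 15. Leaving out any 1 clone array ended the calls of ITGA5, ITGB7 and IFITM2 (adjusted p up to 0.52). The NKG7 call ended without replicate 2 of either clone (adjusted p up to 0.088), and the ISG20 call without TR2 replicate 1 or either TR3 array (up to 0.43). Without the block the BST2 adjusted p was 0.1.

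Of 30 cell cycle genes of the mitotic phase, 2 were called, both lower in TR3, beside 2.12% lower over all genes tested. The list median was -0.08, with 25 of 30 values below 0, beside 48.4% of values below 0 over all genes tested. PLK1, a kinase of mitotic entry, gave 377 and 434 in TR2 and 277 and 296 in TR3 (-0.50 ± 0.09, adjusted p = 0.0017). KIF20A, a kinesin of cytokinesis, gave 1660 and 1496 against 1231 and 1212 (-0.37 ± 0.08, adjusted p = 0.015). CDK1, the mitotic kinase, stood at -0.28 ± 0.09 (adjusted p = 0.073). Of 20 genes of DNA replication and G1/S, CCNE2, a cyclin of S phase entry, was higher (762 and 826 against 1068 and 980, 0.37 ± 0.09, adjusted p = 0.022), and the median was 0.01. TP53I3, a p53 target, was lower (162 and 164 against 123 and 115, -0.45 ± 0.09, adjusted p = 0.0035), 1 of 17 in its list, with its other probe at -0.07. The PLK1 call ended without TR2 replicate 2 or TR3 replicate 1 (adjusted p up to 0.099), the KIF20A call without any 1 clone array (0.25). The CCNE2 call ended without either TR2 array or TR3 replicate 1 (0.49), and the TP53I3 call without TR2 replicate 2 or either TR3 array (0.14).

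Genes of glycolysis and hypoxia were called against a strong difference between replicate numbers. ALDOC, a glycolytic aldolase, read 546 and 938 in TR2 and 1093 and 1329 in TR3 (0.75 ± 0.14, adjusted p = 0.0028). ANKRD37, a hypoxia target, read 489 and 1068 against 1002 and 1200 (0.60 ± 0.14, adjusted p = 0.016). SLC2A3, a glucose transporter, read 812 and 1409 against 1329 and 1617 (0.45 ± 0.12, adjusted p = 0.031). In every line of these 3 genes replicate 2 was brighter than replicate 1, and TR2 and TR3 overlapped in ANKRD37 and SLC2A3. ADM, another hypoxia target, had a wider gap between replicate numbers, with 159 and 2001 in TR2 and 394 and 1649 in TR3 (0.52 ± 0.45, adjusted p = 0.66). RAB20, a small GTPase that hypoxia also induces, overlapped too (151 and 384 against 356 and 500.0, 0.81 ± 0.14, adjusted p = 0.0018). Of 23 genes in the list 3 were higher and 0 lower, beside 2.01% and 2.12% of all genes tested. Without the block the adjusted p was 0.54 for ALDOC, 0.5 for ANKRD37, 0.61 for SLC2A3 and 0.46 for RAB20. The calls of all 4 genes ended without replicate 1 of either clone (adjusted p up to 0.53), and that of ALDOC also without TR2 replicate 2.

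Metabolic, RNA and other lists mostly gave single calls, beside 2.01% higher and 2.12% lower over all genes tested. ASNS, the asparagine synthetase of the amino acid response, gave 883 and 1071 in TR2 and 431 and 752 in TR3 (-0.77 ± 0.12, adjusted p = 0.00055), 1 of 22 genes of amino acid and unfolded protein stress. Its call ended without TR2 replicate 1 (adjusted p = 0.057) and without the block (0.28). IGF2BP2, an oncofetal RNA-binding protein, gave 417 and 449 against 271 and 256 (-0.72 ± 0.09, adjusted p = 2.9e-05), 1 of 4 in its list, and kept its call in all 17 alternatives. DIS3, a ribonuclease of the RNA exosome, gave 105 and 106 against 152 and 144 (0.48 ± 0.09, adjusted p = 0.0021), 1 of 14, with its call lost without TR2 replicate 2 or TR3 replicate 1 (up to 0.12). HEY1, a Notch target, stood at 0.41 ± 0.09 (1 of 13) and the ribosomal protein gene RPS15 at -0.39 ± 0.10 (1 of 18). DNM1, the GTPase dynamin, stood at 0.33 ± 0.08, while SH3GL2 and SH3GL3 in its list of 17 endocytic genes were lower. The calls of HEY1, RPS15 and DNM1 were each lost when single clone arrays were left out. For HEY1 these were TR2 replicate 1 and both TR3 arrays (adjusted p up to 0.2), for RPS15 both TR2 arrays and TR3 replicate 1 (up to 0.64), and for DNM1 each of the 4 (up to 0.33). No member was called among 8 V(D)J recombination, 11 MHC, 12 immediate-early, 19 redox, 20 PI3K and MAPK, 10 O-glycosylation or 23 oxidative phosphorylation genes.

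**Figure D3:**
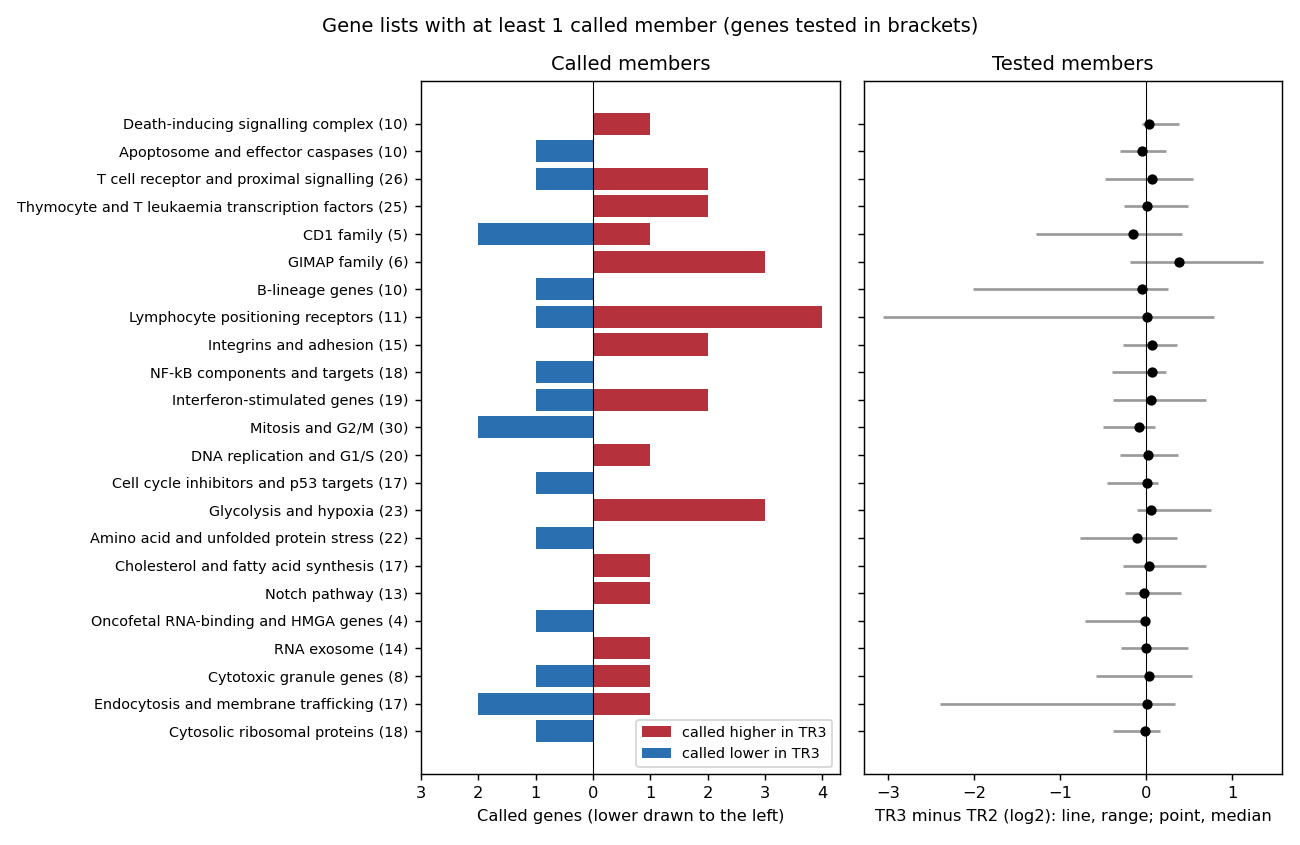
Left, number of genes called higher (right of 0) or lower (left of 0) in TR3 for each list with a called member. Right, range (line) and median (point) of the differences of its tested genes (log2). List medians lie between -0.16 (CD1 family) and 0.38 (GIMAP family), and the 3 widest ranges are set by GPR183, SH3GL2 and IGLL1.

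Genes on chromosome 13 tended to be higher in TR3. Of its 192 tested genes, 38 (19.8%) were higher in TR3 and 4 (2.08%) lower, while the other 22 chromosomes had 0.56% to 2.87% of their genes higher. Its median difference was 0.17, against -0.01 to 0.03 elsewhere, and 86.5% of its values lay above 0 (45.9% to 61.6% elsewhere). The 2 TR3 arrays stood alone above 0. Relative to each gene's mean over the 8 arrays, the chromosome 13 median was 0.125 and 0.129 on the TR3 arrays, -0.05 and -0.063 in TR2, -0.055 and -0.045 in TR1 and -0.017 and -0.012 in WT. No other chromosome left the range from -0.036 to 0.045 on any array. No test was made between chromosomes, and genes of 1 chromosome are not independent of each other.

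**Figure D4:**
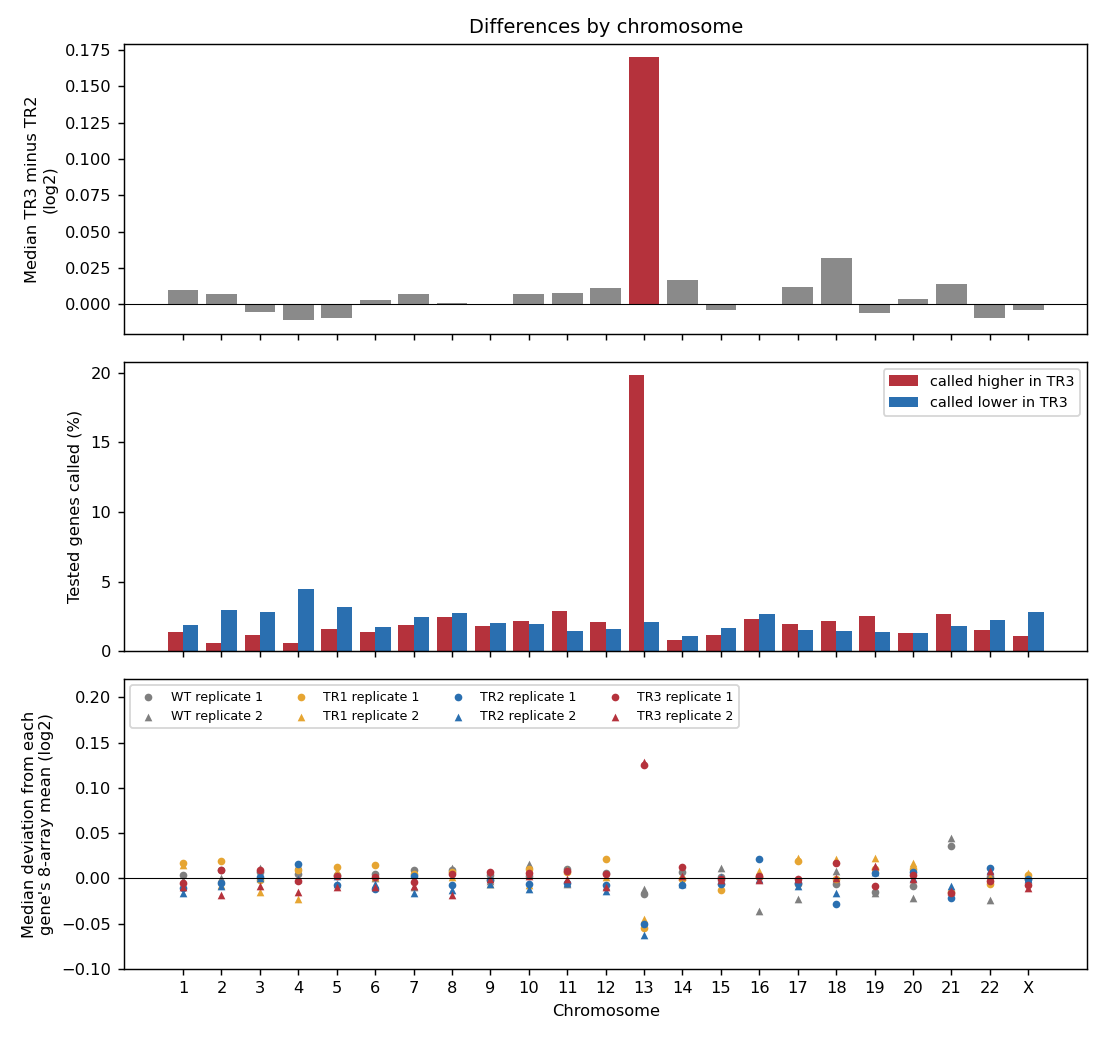
By chromosome, the median difference TR3 minus TR2 (top, log2), the share of tested genes called higher or lower in TR3 (middle, %), and the median deviation of each array from each gene's mean over the 8 arrays (bottom, log2, 1 point per array). Chromosome 13 has 19.8% of genes called higher, and its TR3 arrays lie at 0.125 and 0.129 while all others lie below 0.

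The medians were above 0 in every stretch of the chromosome. In 6 stretches of 32 genes in chromosome order the medians were 0.14, 0.12, 0.15, 0.21, 0.19 and 0.19, with 4 to 9 genes called higher in each. The middle 50% of genes lay between 0.06 and 0.28. The brighter 96 genes had a median of 0.22 and 25 calls, and the dimmer 96 had 0.09 and 13 calls. The 38 genes called higher ranged from 0.31 to 0.81. Besides DIS3, GPR18 and RAB20, they included 2 genes singled out after their values were seen. VPS36, a subunit of the endosomal sorting complex ESCRT-II, gave 890 and 903 in TR2 and 1313 and 1353 in TR3 (0.57 ± 0.08, adjusted p = 0.00028). NHLRC3 gave 281 and 317 against 420 and 475 (0.58 ± 0.09, adjusted p = 0.00055), with its other probe at 0.15. The NHLRC3 call ended without the block (adjusted p = 0.053). The 4 genes that went against the chromosome, named after their values were seen, were GPR183 (-3.06), the cyclin gene CCNA1, the actin regulator gene WASF3 (-0.47 ± 0.08) and LHFPL6 (-0.37 ± 0.08). CCNA1 gave 138 and 147 in TR2 and 89.5 and 86.1 in TR3 (-0.70 ± 0.09, adjusted p = 4.6e-05). The LHFPL6 call ended without any 1 clone array (adjusted p up to 0.31) and the WASF3 call without TR3 replicate 1 (0.051).

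**Figure D5:**
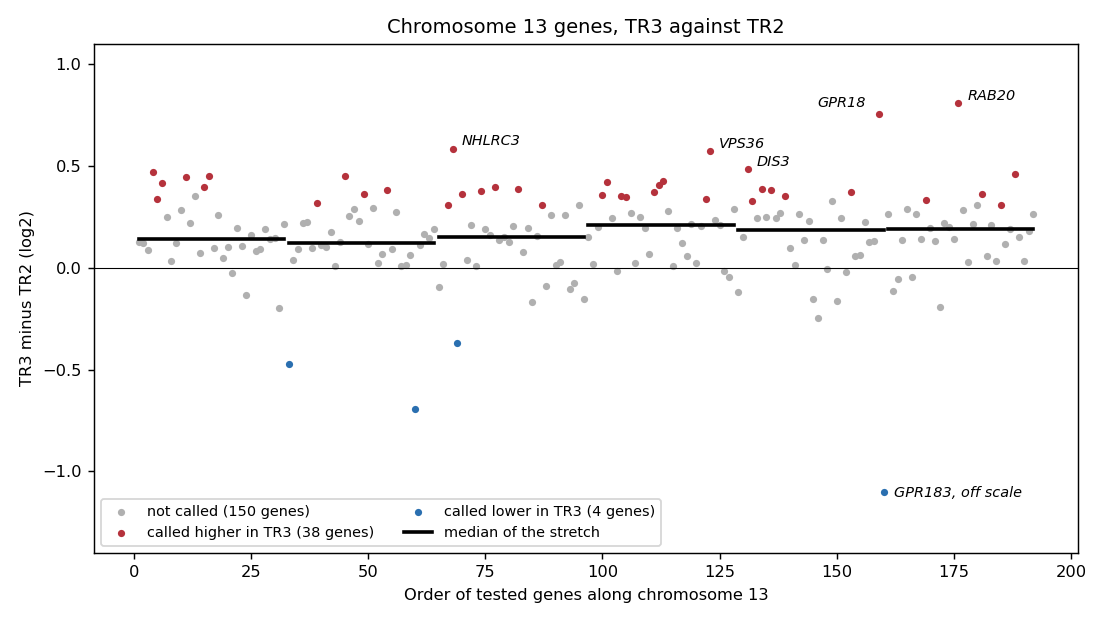
Difference between TR3 and TR2 (vertical axis, log2) of the 192 tested chromosome 13 genes in chromosome order (horizontal axis, rank), with the median of each stretch of 32 genes as a black line. All 6 medians lie above 0, between 0.12 and 0.21, and GPR183, at -3.06, is drawn at the lower edge.

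The same genes were also counted with each clone set against the other lines, in comparisons that share arrays. TR3 against WT gave a chromosome 13 median of 0.14 with 18 genes higher and 3 lower (0.936% and 1.4% of all genes were called higher and lower). TR3 against TR1 gave 0.18 with 43 higher and 2 lower (4.77% and 2.97%). TR2 against WT gave -0.02 with 3 higher and 6 lower (1.97% and 2.01%). Without the block the count of chromosome 13 genes higher in TR3 than in TR2 was 5 and the median 0.17. The count was 14 without TR2 replicate 1, 4 without TR2 replicate 2, 7 without TR3 replicate 1 and 8 without TR3 replicate 2, and the median stayed between 0.16 and 0.18.

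Some called genes were neighbours in gene order. Among called genes, 28 runs of 2 or more adjacent tested genes with the same direction held 58 genes, of which 8 runs with 18 genes lay on chromosome 13. On the other chromosomes 40 of 399 called genes were in such runs, and the number that chance gives was not tested. These include pairs named after their values were seen. PLA2G4A, a phospholipase that frees arachidonic acid, read 106 and 98.6 in TR2 and was not detected above background in TR3 (61.0 and 59.9, at least 1.52-fold lower, adjusted p = 8.5e-06). Its neighbour on chromosome 1, RGS18, a brake on G protein signalling, read 147 and 116 against 77.5 and 79.4 (-0.74 ± 0.09, adjusted p = 4.9e-05). JAKMIP2, beside PPP2R2B on chromosome 5, read 155 and 147 against 105 and 81.4 (-0.70 ± 0.09, adjusted p = 6.4e-05). On chromosome 4, LETM1, an ion exchanger of mitochondria, stood at -0.77 ± 0.09 and NSD2, a histone methyltransferase, at -0.39 ± 0.09. On chromosome 3 the pair was NECTIN3 (-0.70 ± 0.09) and CD96 (-0.58 ± 0.09), an adhesion protein and a lymphocyte receptor of the nectin system. Without the block the adjusted p was 0.17 for CD96 and 0.11 for NSD2. Chromosome 4 had the highest share of lower genes, 4.48%, and the lowest share of higher ones, 0.56%. The NSD2 call ended without any 1 clone array (adjusted p up to 0.17).

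Both clones were also set beside the parental line, in comparisons that share the WT arrays. CFTR, PRG4 and IGLL1 were raised in TR2 (3.09 ± 0.12, 1.50 ± 0.11 and 1.69 ± 0.12 against WT), while TR3 stood at -0.69 ± 0.12, 0.35 ± 0.11 and -0.33 ± 0.12. The adjusted p of the TR3 values was 0.0038, 0.11 and 0.17. EFHD1 ran the opposite course, not called in TR2 (0.03 ± 0.09, adjusted p = 0.9) and lower in TR3 (-1.33 ± 0.09, 5e-08). GPR183, SH3GL2 and CD1B lay on opposite sides of WT, higher in TR2 (1.88, 1.45 and 0.95) and lower in TR3 (-1.18, -0.94 and -0.33), with an adjusted p of 0.039 or less throughout. FGD3 did the reverse, at -0.75 ± 0.11 in TR2 and 0.88 ± 0.11 in TR3. GPR18, TRIM68 and S1PR1 were lower than WT in TR2 (-0.70, -0.57 and -0.54, adjusted p of 0.00088 or less) and not called in TR3 (0.05, 0.20 and 0.25).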

How the data were processed

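RNA of 8 samples (4 lines, 2 biological duplicates each, per the labels) was hybridised to Illumina HumanRef-8 arrays. The authors deposited raw probe intensities, each with a detection p-value, per the file headers. A second deposited table holds processed intensities of unstated scale and centring. These are linear, have a median of 77.2 on each array and rank the probes as a raw column of the same line does (rank correlation 1), so the arrays share 1 distribution. Per the submitters' processing notes limma was used, with no version or role. The scanner software and background correction were not given in the sources used here. Raw columns carry letters and processed ones replicate numbers, which were not matched. No column lay outside the study (0).

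Processed intensities were taken to log2 and fitted in limma 3.58.1 (R 4.3.3) with line and replicate number over all 8 arrays (lmFit, eBayes, 3 residual and 15.8 prior degrees of freedom), and summarised in Python 3.11.15. Tested were 13130 probes detected (p under 0.05) on both arrays of 1 line or more, and p-values were adjusted by Benjamini-Hochberg over all of them. Of the 22184 probes 19715 had 1 symbol, 0 several and 2469 none. 19695 were named through the gene identifier, and 40 called probes had no name. The probe with the highest mean stands for a gene. Gene order and chromosomes come from RefSeq (GRCh38.p14), and no array coordinates were used. The number of arrays limits the precision.

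Replicate numbers pair the samples: differences between replicate 2 and replicate 1 correlated between all pairs of lines (r from 0.28 to 0.432 over probes, which are not independent). Named were up to 15 called genes each way by size, all tested genes of the TRAIL receptor and death complex lists, and up to 4 members of other lists with a call; CCR7, TMSB15B, WASF3, CCNA1, LHFPL6 and those said in the text were added. The members and the 39 lists (641 genes, 489 tested) were chosen with earlier results of these data known. The fit was also run on data simulated from its own model, with a replicate shift per probe shared by all lines. Such data cannot test whether the block suits the arrays. Alternatives were no replicate block, raw values with normexp (offset 16) and quantile normalisation or cyclic loess, the 4 arrays of both clones alone, no filter, detection under 0.01, a trended robust prior, array weights, a subtracted floor and leaving out each array.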

Additional observations from a re-analysis of the deposited data

How the results depend on the processing

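The main fit called 243 probes higher and 261 lower in TR3. Ignoring the replicate pairing gave fewer calls, 30 and 87 on the same values (30 and 87 shared with the calls made with the block), 20 and 83 on raw values with normexp and quantile normalisation, and 27 and 83 with cyclic loess. More calls came from the arrays of TR2 and TR3 alone (562 and 549) and from array weights (481 and 470). Leaving out 1 array gave 39 to 329 higher and 97 to 328 lower, least without TR2 replicate 2 (39 and 116), TR3 replicate 1 (52 and 97), TR3 replicate 2 (86 and 129) and TR2 replicate 1 (99 and 119); a clone left with 1 array is assumed to vary like the others. Without the filter, with the stricter detection filter, the trended prior or the subtracted floor, counts lay within 1.5 times the main ones. No called probe changed direction in any of the 17 alternatives. Of 143 named genes, 84 were called and 33 kept the call in all alternatives (20 of the 30 named for size).

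For chromosome 13, in alternatives chosen after seeing the data, the genes higher numbered 38, against 5, 4 and 5 without the block (processed, normexp and quantile, cyclic loess), 68 on the arrays of both clones alone, 62 with array weights and 4 to 44 without 1 array (14 and 4 without TR2 replicates 1 and 2, 7 and 8 without TR3 replicates 1 and 2). The median of 0.17 became 0.206 with normexp and quantile normalisation and 0.196 with detection under 0.01, and 0.164 to 0.183 without 1 array. Named genes without a call that changed sign were FADD (0.048), CASP8 (0.023), ADM (-0.811), INSIG1 (-0.060), FADS2 (-0.096) and HMGA1 (-0.048) without TR2 replicate 1, and TRADD (-0.147), IGF2BP3 (0.000) and IGF2BP1 (0.010) without TR2 replicate 2. Others were FADD (0.034), HMGA1 (-0.064) and RPL22 (-0.024) without TR3 replicate 1, CASP8 (0.107), CASP10 (-0.029) and IGF2BP1 (0.037) without TR3 replicate 2, and TRADD (-0.012) with cyclic loess. The cause of these changes was not tested. Signal near background limits the dim genes, for which fold changes are bounds or understated.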

Other observations

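Several transcription factor genes outside the lists differed between the clones. They were picked after their values were seen, so the values stand as a description. NEUROG2, a proneural factor, read 187 and 199.9 in TR2 and 83.3 and 111 in TR3 (-1.01 ± 0.10, adjusted p = 1.1e-06). INSM1, a zinc finger factor of neuroendocrine cells, read 196 and 174 against 90.6 and 97.4 (-0.97 ± 0.09, adjusted p = 6.2e-07). Both lay above WT in TR2 (0.57 and 0.88). The neighbouring Iroquois homeobox genes on chromosome 16 were lower in TR3, IRX3 at 5224 and 3882 against 3174 and 3114 (-0.52 ± 0.09, adjusted p = 0.0025) and IRX5 at 686 and 604 against 538 and 494 (-0.32 ± 0.09, 0.044). IRF8, a factor of myeloid and B cell development, was higher, at 76.8 and 85.7 against 106 and 143 (0.60 ± 0.09, adjusted p = 0.00029). The IRX3 call ended without replicate 1 of either clone (adjusted p up to 0.14), the IRX5 call without any 1 clone array (up to 0.4) and the IRF8 call without the block (0.13).

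Genes tied to cell death or the cell surface also differed. These too were picked after their values were seen, so the values stand as a description. FAIM, an inhibitor of death receptor killing, read 364 and 311 in TR2 and 236 and 210 in TR3 (-0.59 ± 0.09, adjusted p = 0.00063), with its other probe at -0.12 and no call without the block (0.16). CEP70, its neighbour on chromosome 3 and a centrosome protein, stood at -0.42 ± 0.09. SLFN11, which blocks stressed replication forks, read 1093 and 1364 against 1816 and 2068 (0.67 ± 0.10, adjusted p = 0.00055), and the tetraspanin CD9 read 835 and 1069 against 1273 and 1467 (0.53 ± 0.08, 0.00057). Both stood at -0.58 or below against WT in TR2 and at 0.08 and -0.05 in TR3. Without the block the adjusted p was 0.05 for SLFN11 and 0.16 for CD9, and the CEP70 call ended without either TR2 array or TR3 replicate 1 (up to 0.35).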
